A study of Mus musculus with 16 samples.

Results

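The 10 genes followed here are expressed at a high level in skeletal muscle: Myh4, Myh1, Myh2, Acta1, Tnnt3, Tnnc2, Mylpf, Ckm, Mb and Pvalb. They were taken by name, through the RefSeq accession of each array probe, and all 10 were found, on 15 of the 41174 probes that are not controls. All 10 passed the filter on dim probes, together with 18560 other genes and unnamed transcripts. The genes were followed as a measure of tissue next to the airway in RNA labelled as airway epithelium. The study measured brush-harvested airway epithelium of FvB mice on 16 one-colour Agilent arrays, in 4 groups of 4. The groups were Itgb6 knockout (ko) mice given ovalbumin (OVA), ko mice given saline, wild-type (wt) mice given OVA, and wt mice given saline. Itgb6 encodes the integrin subunit beta6, which epithelial cells use to activate latent TGF-beta, and OVA is an antigen from egg white, given repeatedly to make airways allergic. Mice were 6 to 8 weeks old at sensitization. They received 20 ug of OVA, or saline, into the peritoneum on days 1, 4 and 7, then 10 ug of OVA, or saline, into the nose weekly for 9 weeks, and tissue was taken 24 h after the last dose.

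Skeletal muscle fibres contract when myosin motors of the thick filament pull on actin of the thin filament. Calcium released inside the fibre binds troponin on the thin filament and opens the binding sites for myosin. Fast fibres and slow fibres use different myosins and troponins, and most of the genes followed here belong to fast fibres. The trachea and larynx lie against striated muscle, and airway epithelial cells themselves are not known to build sarcomeres.

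The promoters of members were searched for 3 motifs that muscle factors bind, because the genes moved together over the arrays. Windows of 300 bases, from 250 before to 50 after each RefSeq start, were given for 9 of the 10 genes and made 12 windows, with coordinates of GRCm38.p6. The E-box CANNTG, the site of myogenic helix-loop-helix factors, was in 9 of the 12 windows and in 72.3% of all 32851 windows of that length. The pattern CTANNNNTAG, taken as 1 form of the MEF2 site, was in 0 of the 12 and in 3.69% of all windows. Other forms of the MEF2 site were not searched, so this count does not show that the windows lack one. The CArG box, the site of serum response factor, was in 2 of the 12, those of Myh4 and Acta1, and in 1.63% of all windows. As patterns, all 3 motifs read the same on both strands, although the letters of a single match may not. A match is a description of letters and not evidence that a factor binds. The 2 windows with a CArG box are shown with that of Myh2, which lies near Myh4 on chromosome 11. The level of Myh2 did not follow that of Myh4 on every array. Myh2 had -1.09 on ko_saline 3, where Myh4 had 5.24. On ko_OVA 3 and ko_OVA 4 it was at the floor, where Myh4 had 0.70 and 1.07. Capitals mark CANNTG and CArG box matches, which do not overlap each other here, and the Myh2 window holds none. The window of Myh1, which lies between Myh2 and Myh4 and followed Myh4, holds none either.
Myh4, chr11:67237562-67237861, plus strand: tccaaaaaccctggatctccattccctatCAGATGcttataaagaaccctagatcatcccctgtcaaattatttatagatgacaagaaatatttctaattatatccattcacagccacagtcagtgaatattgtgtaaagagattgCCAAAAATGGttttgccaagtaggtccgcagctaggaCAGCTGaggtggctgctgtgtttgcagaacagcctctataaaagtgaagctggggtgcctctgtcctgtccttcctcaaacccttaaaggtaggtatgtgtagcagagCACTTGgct
Acta1, chr8:123894726-123895025, minus strand: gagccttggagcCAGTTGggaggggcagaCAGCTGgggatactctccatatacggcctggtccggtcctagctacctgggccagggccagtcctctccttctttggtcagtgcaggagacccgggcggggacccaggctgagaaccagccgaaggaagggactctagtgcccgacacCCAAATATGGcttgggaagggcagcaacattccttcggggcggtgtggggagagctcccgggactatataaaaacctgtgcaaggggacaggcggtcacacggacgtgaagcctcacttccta
Myh2, chr11:67170777-67171076, plus strand: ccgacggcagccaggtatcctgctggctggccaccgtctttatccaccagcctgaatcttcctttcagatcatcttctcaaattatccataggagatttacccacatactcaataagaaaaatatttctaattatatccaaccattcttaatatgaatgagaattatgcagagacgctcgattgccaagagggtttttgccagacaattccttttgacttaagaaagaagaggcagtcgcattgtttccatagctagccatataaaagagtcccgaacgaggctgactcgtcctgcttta

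Each level below is the log2 of a probe's signal over the 75th percentile of its array, so that 0 is the level of that percentile. Levels were floored at -3.32. For this, the dimmest signal that passed as well above background was taken on each array, and the floor is the highest of the 16. Probes differ in how they bind, so a level of 1 gene is compared only between arrays, never with that of another gene. The 75th percentile itself was 78.0 intensity units on the dimmest array, ko_OVA 4, and 793 on the brightest, ko_saline 3, and the number of arrays limits the precision. The labels do not say that the 4 arrays of a group came from separate mice, so p-values measure the spread between samples, which may be technical. In RNA of whole samples, fewer muscle cells and less muscle RNA per cell cannot be told apart. Itgb6 lay at -1.17 ± 0.36 on ko_OVA and -0.86 ± 0.13 on ko_saline arrays, against -0.59 ± 0.04 on wt_OVA and -0.75 ± 0.25 on wt_saline arrays (SD, n = 4 each). Where its probe lies relative to the deletion is not given in the sources used here, so it checks no label. Markers of airway epithelium were high on every array: the mean of 18 measured genes was between 5.80 and 7.03 on all 16.

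The members were high on a few arrays of different groups and near the floor on others. On ko_saline 2 all 10 genes had their highest level, and on wt_OVA 1 all 10 had their second highest. The 2 arrays differ in both genotype and treatment. Values are given below by replicate number, 1 to 4.

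Myh4, Myh1 and Myh2 encode the myosin heavy chains of type IIb, IIx and IIa fast fibres. The 3 transcripts are close copies of each other, so a probe of one may bind another and their separate levels are uncertain. Myh4 had -0.06, -3.32, 0.70 and 1.07 on the ko_OVA arrays, against -3.32, 6.74, 5.24 and 1.71 on the ko_saline arrays. It had 5.82, 0.43, -3.32 and -2.07 on the wt_OVA arrays, against 2.75, -2.71, 0.74 and 0.18 on the wt_saline arrays. In every group at least 1 array lay at or within 1 log2 unit of the floor, and the groups overlap. Myh1 had -3.10, -3.32, -1.45 and -1.43 on the ko_OVA arrays, against -3.32, 4.78, 3.53 and 1.44 on the ko_saline arrays. On wt_OVA arrays Myh1 had 4.49, -0.62, -3.32 and -3.32, against 2.29, -2.92, 0.63 and -1.09 on wt_saline arrays. Its order over the arrays was close to that of Myh4, with ko_saline 2, wt_OVA 1 and ko_saline 3 at the top. Myh2 was at the floor on the 3 ko_OVA arrays that measured it, since its spot on ko_OVA 1 was marked as an outlier and left out, against -3.32, 4.93, -1.09 and 0.82 on the ko_saline arrays. It had 4.59, -0.88, -3.32 and -3.11 on the wt_OVA arrays, against 3.04, -3.18, 1.93 and -2.22 on the wt_saline arrays. Unlike the other 2 myosins it was low on ko_saline 3, below its level on 6 other arrays.

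The probes of a myosin gene did not all follow each other. A second Myh4 probe followed the first with r = 0.990 over the arrays, and a second Myh2 probe followed with r = 0.999. A second Myh1 probe was at the floor on 14 arrays, with a highest level of -2.94, and another Myh2 probe was at the floor on 12. A second Tnnt3 probe followed the first with r = 0.991. The brightest probe stands for each gene, so the values of Myh1 rest on that choice, and those of Myh2 on setting aside its dimmest probe. On ko_OVA 1, where the spot of the brightest Myh2 probe was left out, the second Myh2 probe was at the floor.

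Acta1, Tnnt3 and Tnnc2 belong to the thin filament: Acta1 is skeletal muscle actin, Tnnt3 the fast troponin T that anchors the troponin complex to tropomyosin, and Tnnc2 the fast troponin C that binds calcium. Acta1 had -3.09, -3.32, -1.95 and -0.93 on the ko_OVA arrays, against -1.10, 4.99, 3.57 and 0.32 on the ko_saline arrays. It had 4.11, -1.05, -2.58 and -2.09 on the wt_OVA arrays, against 1.83, -2.91, 0.91 and -1.82 on the wt_saline arrays. Its 3 highest arrays were those of Myh4 and Myh1, and its ko_OVA and ko_saline arrays overlap only between ko_OVA 4 and ko_saline 1. Tnnc2 had 0.09, -3.32, 2.17 and 1.72 on the ko_OVA arrays, against -2.83, 7.18, 6.12 and 3.39 on the ko_saline arrays. On wt_OVA arrays Tnnc2 had 6.96, 1.74, -2.96 and -0.47, against 4.62, -0.42, 3.40 and 0.89 on wt_saline arrays. Its range was the widest of the 10, at least 1450-fold between ko_saline 2 and ko_OVA 2, where it was at the floor. Tnnt3 had -3.10, -3.32, -2.12 and -1.69 on the ko_OVA arrays, against -3.23, 4.32, 3.25 and -0.24 on the ko_saline arrays. It had 3.80, -1.37, -3.32 and -3.32 on the wt_OVA arrays, against 1.40, -3.32, 0.12 and -2.58 on the wt_saline arrays. Within both ko_saline and wt_OVA, the highest and lowest arrays of each thin filament gene lay over 6 log2 units apart.

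Mylpf, the regulatory light chain of fast myosin, was the member with no array at the floor. It had -1.77, -2.80, -1.34 and -1.77 on the ko_OVA arrays, against -2.36, 3.92, 2.64 and -0.18 on the ko_saline arrays. Its values were 3.15, -1.21, -2.69 and -2.51 on the wt_OVA arrays, against 1.03, -2.09, -0.16 and -1.94 on the wt_saline arrays. The highest was 105-fold above the lowest. Because it was measured on every array, this ratio is not limited by the floor.

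Ckm is the creatine kinase that regenerates ATP in muscle, Mb is myoglobin, which stores oxygen in fibres, and Pvalb is parvalbumin, the calcium buffer that speeds relaxation of fast fibres. Ckm was at the floor on ko_OVA arrays 1, 2 and 4 and at -3.28 on ko_OVA 3, against -3.32, 3.05, 1.52 and -1.72 on the ko_saline arrays. It had 2.11, -3.15, -3.32 and -3.32 on the wt_OVA arrays, against -0.69, -3.32, -1.86 and -3.32 on the wt_saline arrays. Ckm and Pvalb were each at the floor on 8 of the 16 arrays, so differences among those have no order. Mb had -3.32, -3.32, -2.16 and -2.88 on the ko_OVA arrays, against -3.32, 3.61, 1.18 and 0.16 on the ko_saline arrays. On wt_OVA arrays Mb had 2.68, -1.66, -3.32 and -3.32, against 1.87, -2.93, 0.46 and -2.69 on wt_saline arrays. As with the other members, the 2 highest arrays were ko_saline 2 and wt_OVA 1. Pvalb had -3.32, -3.32, -2.16 and -3.32 on the ko_OVA arrays, against -3.32, 2.09, 1.13 and -1.57 on the ko_saline arrays. It had 1.74, -3.29, -3.32 and -3.32 on the wt_OVA arrays, against -0.38, -3.32, -2.27 and -3.32 on the wt_saline arrays. Its range of at least 42.5-fold was the narrowest of the 10.

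**Figure D1:**
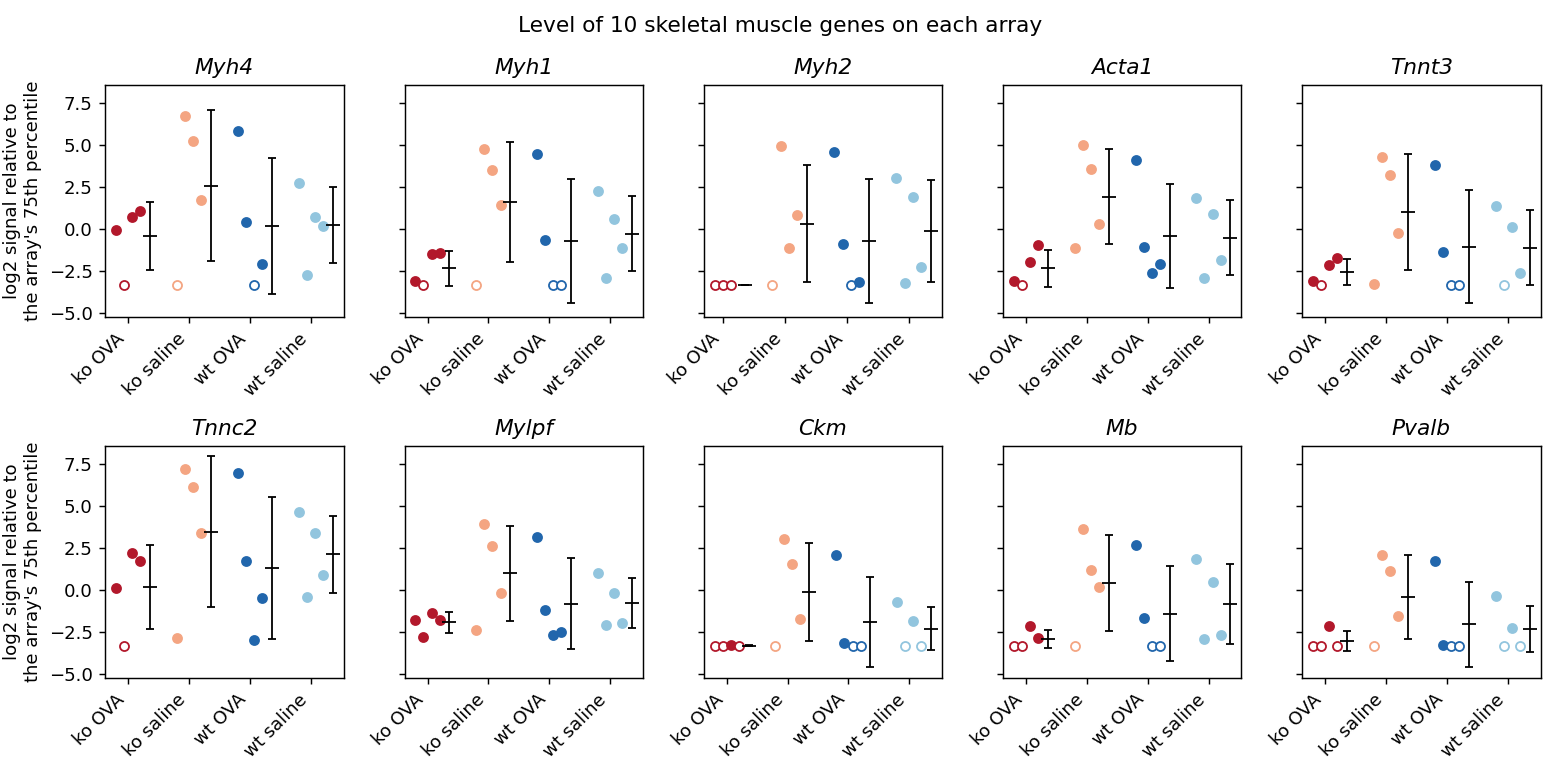
Level of each of the 10 genes by group, in log2 units over the array's 75th percentile; a filled point is an array, an open point an array at the floor of -3.32, and the bar to the right of each group is the mean with its SD (n = 4, and 3 for Myh2 on ko OVA arrays). In ko saline and wt OVA the points of every gene spread over more than 5 log2 units, with arrays at both ends.

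The mean of the 10 levels ordered the arrays from 4.56 on ko_saline 2, 3.95 on wt_OVA 1, 2.71 on ko_saline 3 and 1.78 on wt_saline 1 down to -3.27 on ko_OVA 2. Group means were -2.17 ± 0.82 for ko_OVA and 1.18 ± 3.23 for ko_saline, against -0.75 ± 3.25 for wt_OVA and -0.58 ± 2.04 for wt_saline (SD, n = 4 each). The 4 ko_OVA arrays, between -3.27 and -1.49, had the smallest SD. The floor narrows this spread, since 3, 9, 1 and 3 of the 10 members were at it on ko_OVA 1 to 4. Up to 7 were at it on arrays of other groups. Each other group held at least 1 array above the ko_OVA arrays and 1 within their range. Summed over the members, the share of the signal of all probes was 0.301% on ko_saline 2, 0.211% on wt_OVA 1 and 0.130% on ko_saline 3, and it was as low as 0.000270% on ko_OVA 2. Even at its highest, the share was a small part of the signal of an array. It counts 1 probe for each of the 10 genes and leaves out all other muscle genes, so it is not the muscle part of a sample. The SD within groups, pooled over the 4 groups, was 1.92 for Pvalb to 3.52 for Tnnc2. Its median over all 18570 genes was 0.24 and its 99th percentile 1.29. The 10 genes ranked between 10 and 71 of 18570 by this SD, so the spread between arrays of a group was among the widest measured.

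The arrays lay on 4 slides of 4 arrays, and slide 1 was scanned on a date of its own. Groups were not spread evenly: slide 3 held no ko_saline array and slide 4 no wt_OVA array. All wt_saline arrays were at positions 1 or 2 of a slide and all ko_OVA arrays at positions 3 or 4. Position and group are thus partly confounded. The mean of the members spanned 2.20 log2 units within slide 1, 4.72 within slide 2, 7.09 within slide 3 and 7.83 within slide 4. The span within slide 4 was that of all 16 arrays. High and low arrays shared slides: ko_saline 2 at 4.56 and ko_OVA 2 at -3.27 were both on slide 4, and wt_OVA 1 at 3.95 and wt_OVA 3 at -3.14 were both on slide 3.

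**Figure D2:**
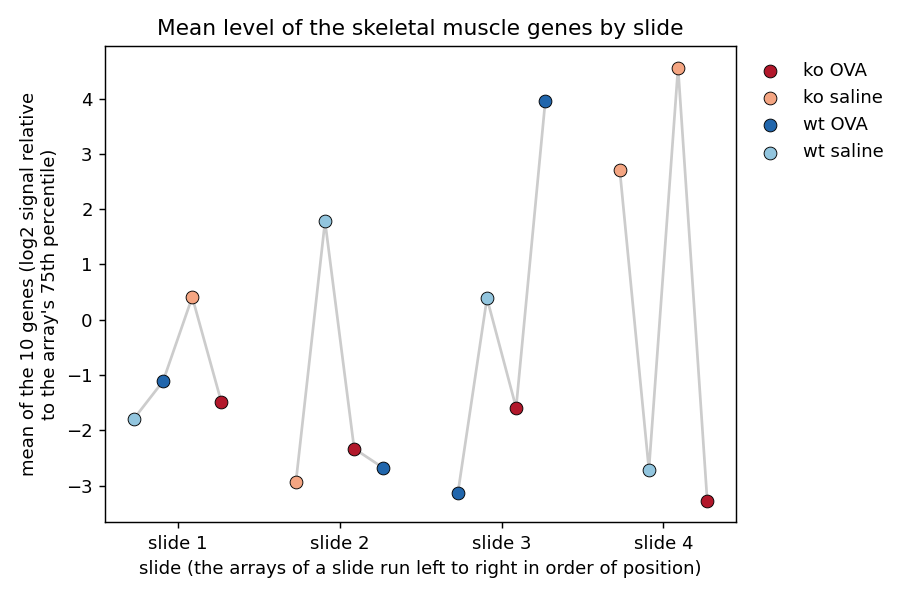
Mean level of the 10 genes on each array (vertical axis, log2 units over the array's 75th percentile) by slide, with the arrays of a slide in order of position and coloured by group. The spans within slides run from 2.20 on slide 1 to 7.83 on slide 4, and arrays of 1 group lie far apart.

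The 10 genes kept close to each other over the arrays. The Pearson correlation of the 45 pairs of members ran from 0.802 to 0.990, with a median of 0.945, over 16 arrays that share their scaling, and 15 for the 9 pairs with Myh2, among them the lowest; it is given as a description. Proportions among the members were compared as each gene's level minus that of Myh4 on the same array. This was done on the 7 arrays on which all 10 were above the floor, and none of these is a ko_OVA array. The size of such a difference has no meaning across probes, and its change between arrays does. For 7 genes this difference moved by 1.12 (Ckm) to 2.22 (Tnnc2) log2 units over the 7 arrays, far less than the levels themselves. For Mb it moved by 3.78, with its lowest value on ko_saline 3. Myh2 stood apart with a span of 7.53: its level minus that of Myh4 was -6.33 on ko_saline 3, against -1.81 on ko_saline 2, -0.89 on ko_saline 4, -1.23 on wt_OVA 1, -1.31 on wt_OVA 2, 0.28 on wt_saline 1 and 1.20 on wt_saline 3. Among the 7 arrays, the type IIa myosin and myoglobin were thus lowest relative to the type IIb myosin on ko_saline 3. Oxidative fibres carry both in greater amount. For Mb the difference there was -4.06, against -3.13 on ko_saline 2 and -3.14 on wt_OVA 1. Low values were not limited to ko_saline 3: on ko_OVA 4, outside the 7, Mb had -2.88 and Myh2 was at the floor, where Myh4 had 1.07. All 9 differences were highest on wt_saline 3, where Myh4 was the lowest of the 7 arrays but 1. The near-constant proportions of 7 genes are not shown for ko_OVA arrays. On ko_OVA 1 Myh4 had -0.06, with Acta1 at -3.09 and Myh1 and Tnnt3 at -3.10. On wt_OVA 2, among the 7 arrays, Myh4 had 0.43, with Acta1 at -1.05, Myh1 at -0.62 and Tnnt3 at -1.37. Each difference rests on 1 array a point and was not tested.

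**Figure D3:**
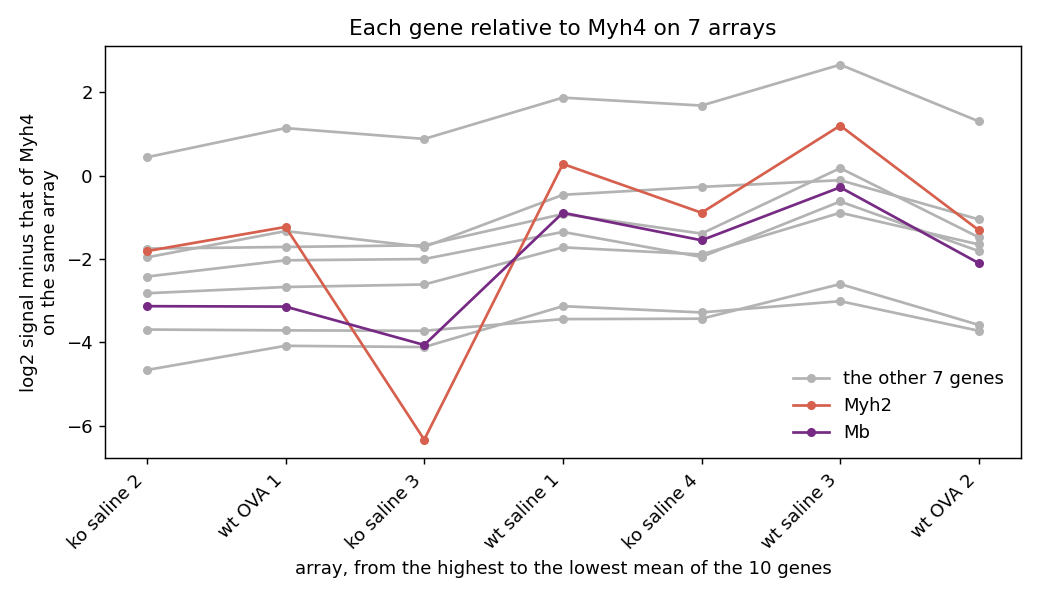
Level of 9 genes minus that of Myh4 on the same array (vertical axis, log2 units) on the 7 arrays with all 10 genes above the floor, from the highest to the lowest mean of the 10 genes. None of these is a ko OVA array. Only the course of a line can be read, not its height; the lines of 7 genes are close to parallel, and that of Myh2 drops to -6.33 on ko saline 3.

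The first comparison asked whether OVA changed the members in ko mice. All 10 were lower on ko_OVA than on ko_saline arrays, with log2 changes of -4.27 (Acta1) to -2.61 (Pvalb) and a median of -3.31, against a median of 0.00 over all genes tested. None was called by limma with Benjamini-Hochberg adjustment over all 18570 genes at 0.05, whereas 0.749% of all genes were called. At an unadjusted p under 0.05, 3 of the 10 passed, all lower, against 9.73% of all genes that passed and 4.34% that passed and were lower. Acta1 averaged -2.32 ± 1.10 on ko_OVA and 1.95 ± 2.82 on ko_saline arrays (SD, n = 4 each), a log2 change of -4.27 with a 95% confidence interval of -7.67 to -0.87 and a limma adjusted p of 0.347. The creatine kinase Ckm changed by -3.19 (-6.11 to -0.28), with a limma adjusted p of 0.447. Myoglobin changed by -3.33 (-6.62 to -0.03), with a limma adjusted p of 0.508. Intervals of the other 7 included 0, as for Tnnc2 at -3.30 (-8.22 to 1.62). The count at an unadjusted p under 0.05 was 0 of 10 without ko_saline 2 and 0 of 10 without ko_saline 3, and 10 of 10 without ko_saline 1, the ko_saline array with 6 members at the floor. No member was called under any of these, and the median change was -2.13 without ko_saline 2. Within slides the median difference was -1.72 on slide 1 and -6.59 on slide 4, and on slide 2 it was 0.12, with 5 members higher and 1 lower, 3 at the floor on both arrays and Myh2 not measured.

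In wt mice the members showed no common direction with OVA. The median log2 change was -0.02, with 4 members higher and 6 lower, from -0.80 (Tnnc2) to 0.38 (Ckm). None of the 10 was called by limma and 0 passed at an unadjusted p under 0.05, whereas 2.61% of all genes were called and 16.5% passed unadjusted. Intervals were wide: for Myh4 averages were 0.22 ± 4.05 on wt_OVA and 0.24 ± 2.26 on wt_saline arrays (SD, n = 4 each), and the 95% interval of the change ran from -4.74 to 4.69. For 7 of the 10 members the wt interval included the change seen in ko mice. It did not for Acta1 (-3.30 to 3.50), Ckm (-2.54 to 3.29) and Pvalb (-2.41 to 2.96), and the difference between the genotypes is tested by the interaction, given further on. With 1 array left out at a time, the median ran from -1.73 without wt_OVA 1 to 0.70 without wt_saline 1. Within slides it was 0.75 on slide 1, -4.77 on slide 2 and 0.04 on slide 3.

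Between the genotypes the members averaged higher in ko after saline and lower in ko after OVA, and no difference passed the test. After saline all 10 were higher in ko, by 0.45 (Myh2) to 2.44 (Acta1) and a median of 1.89; limma called 0 of 10, and 0 passed at an unadjusted p under 0.05, against 0.162% of all genes called and 6.30% that passed unadjusted. The median was 0.90 without ko_saline 2 and 3.34 without ko_saline 1. On single slides the median of ko minus wt was 2.24 on slide 1, -4.91 on slide 2 and 6.34 on slide 4. After OVA all 10 were lower in ko, with log2 changes of -2.64 (Myh2) to -0.62 (Myh4) and a median of -1.45. Limma again called 0 of 10, with 0 at an unadjusted p under 0.05, against 0.145% of all genes called and 5.08% that passed unadjusted. The median was 0.10 without wt_OVA 1 and -2.21 without wt_OVA 3, and within slides it was -0.31 on slide 1, 0.21 on slide 2 and -2.01 on slide 3.

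The interaction, the change with OVA in ko minus that in wt, had a median of -3.03 over the members, with all 10 below 0. Limma called 0 of 10, with an adjusted p of 0.993 for each and 0 at an unadjusted p under 0.05; 0% of all genes were called and 3.06% passed unadjusted. Its median was -1.60 without wt_OVA 1, -1.99 without ko_saline 2 and -4.61 without ko_saline 1. The changes in the 2 genotypes were thus not shown to differ. Standard errors of the 4 simple comparisons were 1.25 to 2.29 for the members, against a median of 0.17 over all genes.

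**Figure D4:**
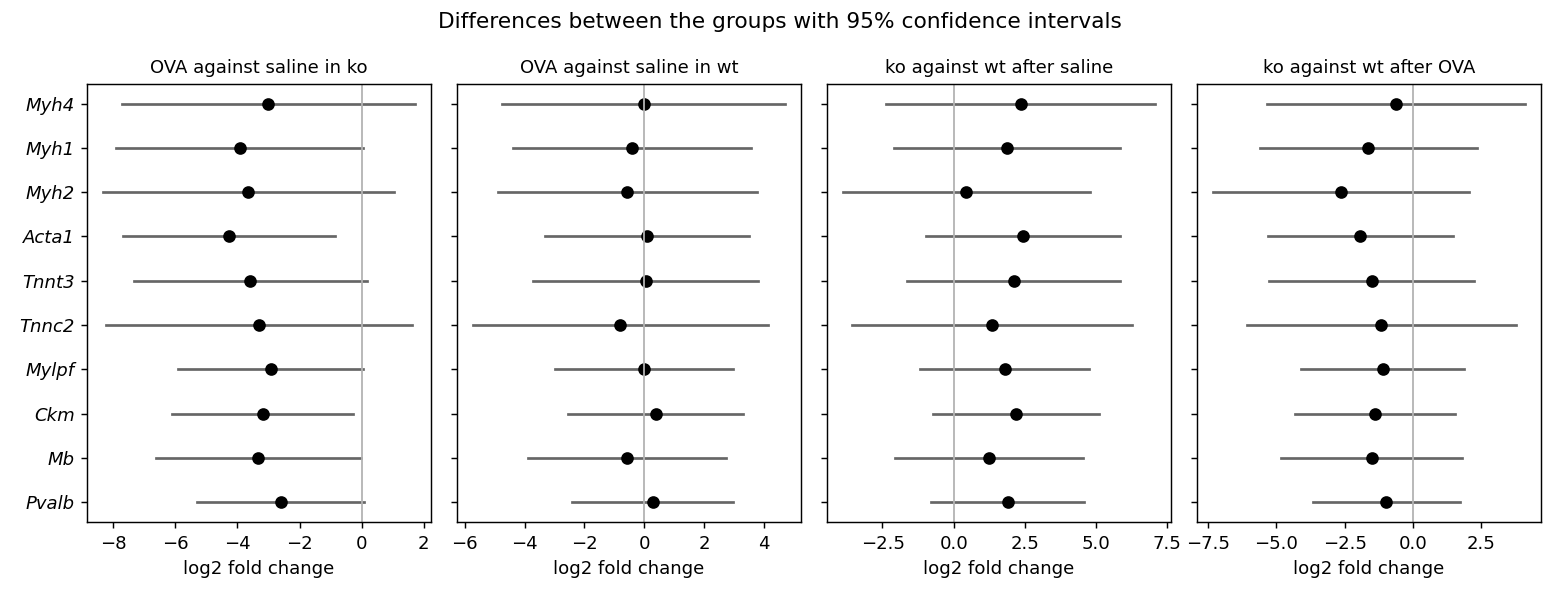
Log2 change of each of the 10 genes in 4 comparisons (horizontal axis) with its 95% confidence interval from limma. Only the intervals of Acta1, Ckm and Mb for OVA against saline in ko leave out 0, and none of the genes passed after adjustment over all genes.

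Other genes of fast muscle followed the members over the arrays. For each gene the Pearson r with the mean of the 10 members, each centred on its own mean, was computed over the 16 arrays as a measure of likeness; these genes were ranked by r, so it carries no p. Of 18560 other genes, 30 had an r of at least 0.9, which is 0.162%. The most alike with a symbol was Myl1, an essential light chain of fast myosin (r = 0.993, Spearman rho = 0.970), and r was 0.992 without ko_saline 2 and wt_OVA 1, the 2 arrays farthest from the median. It was followed by Myom2, a protein of the M-band (0.991), Pgam2, the muscle phosphoglycerate mutase (0.991), Tnni2, the fast troponin I (0.982), and Myh8, a perinatal myosin heavy chain (0.977). Myh8 is another close copy of the member myosins, so its probe may bind them. The next were Myl3, a light chain of slow and ventricular muscle (0.975), the giant spring protein Ttn (0.974), the skeletal myosin light chain kinase Mylk2 (0.973), the titin cap Tcap (0.971), Cox6a2, the muscle form of a cytochrome oxidase subunit (0.971), Nrap (0.962) and the Z-disc protein Myoz1 (0.961). All 12 are genes of striated muscle, and their Spearman rho was 0.841 to 0.979. Without those 2 arrays their r was 0.915 to 0.992, so the likeness does not rest on them alone.

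The least alike genes were Rad21, a cohesin subunit (-0.897, over 15 arrays), Smyd4 (-0.835), the peroxiredoxin Prdx4 (-0.826), the potassium channel Kcnq1 (-0.816) and Tmem9b (-0.816). Their levels ranged over 0.49 to 0.70 log2 units in all, against 5.41 to 10.5 for the members. These values are relative to the 75th percentile of each array.

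Lists of muscle genes were compared with the members, of which Ldb3 stands in 2 lists. Among other fast muscle genes, 20 of 22 measured had an r of at least 0.5 and 10 at least 0.9, with a median of 0.891. The exceptions were Cfl2 (0.356) and Tpm1 (-0.185), which other cells express too. In calcium handling and excitation, 7 of 8 had an r of at least 0.5, among them Ryr1, the calcium release channel (0.885), and Hrc, a calcium-binding protein of the sarcoplasmic reticulum (0.912). In muscle metabolism it was 17 of 20, led by Pgam2 and Cox6a2. Without ko_saline 2 and wt_OVA 1, an r of at least 0.5 was left for 15 of the 22 other fast muscle genes, 4 of the 8 calcium handling genes and 10 of the 20 metabolism genes; 1, 1 and 2 genes of these lists were at the floor on all arrays left and have no r. The likeness of a part of each list thus rests on those 2 arrays. These 3 lists had their highest gene levels on the same 2 arrays as the members, for 20 of 22, 7 of 8 and 18 of 20 genes. Of all probes 74.5% were well above background on wt_OVA 1 and 73.4% on wt_OVA 2, against 58.5% on ko_saline 2. The lists of heart muscle, endothelium and nerve also had 0 genes at the floor on wt_OVA 1. Acan of cartilage and Pecam1 of endothelium left the floor only there, so a dim gene's peak on wt_OVA 1 is not particular to muscle.

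Slow and heart muscle genes mostly did not follow. Of 7 slow muscle genes measured, Myl3 alone had an r of at least 0.5. The slow troponin I gene Tnni1 was at the floor on 15 arrays, with -2.17 on wt_OVA 1, and the slow and cardiac troponin C gene Tnnc1 was above it only on wt_OVA 1 (-1.83) and wt_OVA 2 (-3.23). Myh7, the slow and cardiac myosin heavy chain, ran between 1.96 and 3.81 on all arrays, with r = 0.136. Of 10 heart muscle genes 1 had an r of at least 0.5, Tnnt2 (0.558), and the atrial peptide gene Nppa stayed between -3.32 and -2.68. Of 9 muscle regulators and developmental myosins, Myh8 and Mef2c had an r of at least 0.5 (0.977 and 0.835), and Smyd1, a muscle methyltransferase with the second widest range of the list, had -0.405.

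**Figure D5:**
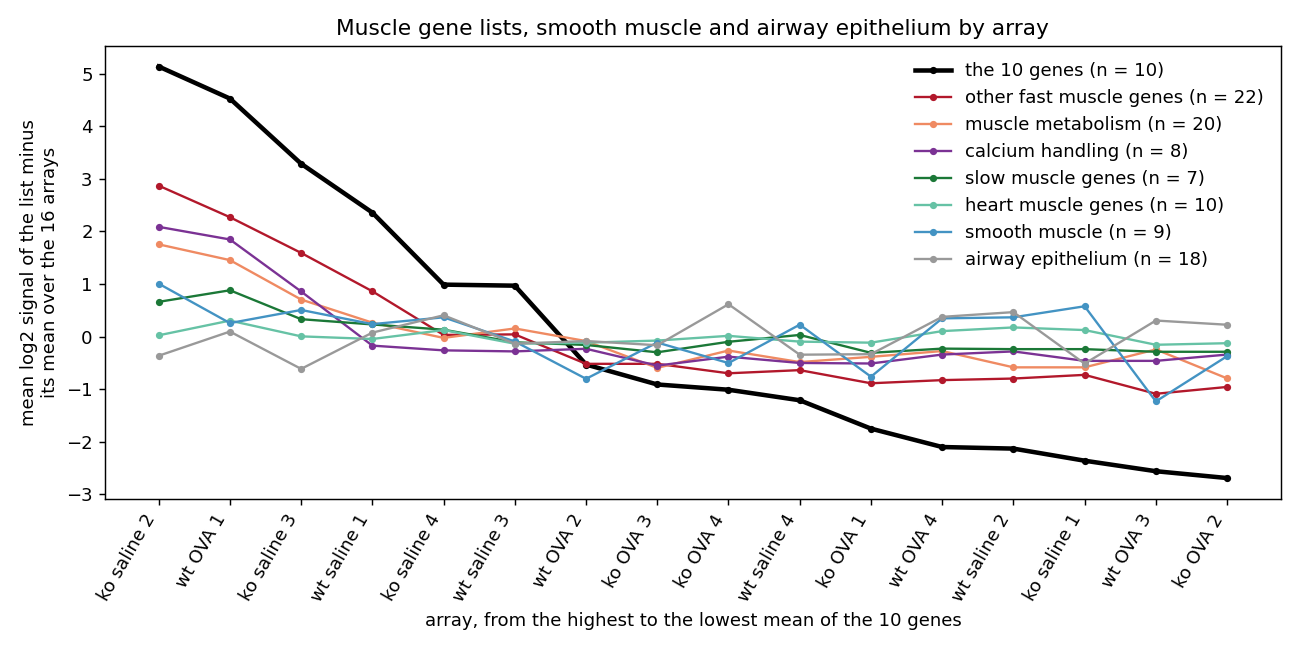
Mean level of each list minus its own mean over the 16 arrays (vertical axis, log2 units), with arrays from the highest to the lowest mean of the 10 genes. Other fast muscle genes, calcium handling and metabolism are highest on ko saline 2 and wt OVA 1 with the members, and heart muscle and airway epithelium do not follow.

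In the tests between groups few muscle genes were called. With OVA in ko, 1 of 22 other fast muscle genes was called, Pdlim3, an actinin-binding protein, which fell by 1.25 ± 0.24 on the log2 scale (SE, limma adjusted p = 0.0241) and had r = 0.635 with the members. It was called in 12 of the 16 fits that left out 1 array. The list's median was -1.81, and 9 of its 22 genes passed unadjusted, whereas 0.749% of all genes were called and 9.73% passed unadjusted. Calcium handling and muscle metabolism had 0 calls there by limma, with 1 of 8 and 6 of 20 genes at an unadjusted p under 0.05, and the metabolism list had a median of -0.92. With OVA in wt, Atp2a2, a calcium pump of slow and heart muscle that many other cells also use, rose by 0.77 ± 0.16 (limma adjusted p = 0.0189), and Myh7 fell by 0.96 ± 0.20 (0.0216). With OVA in ko, Myl4, the atrial light chain, rose by 0.71 ± 0.13 (limma adjusted p = 0.0242). None of these 3 followed the members, with r of -0.367, 0.136 and -0.419. Left out 1 array at a time, they were called in 14, 11 and 12 of 16 fits.

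Genes of other tissues were set beside the members by the same measure. Smooth muscle had 2 of 9 genes at an r of at least 0.5 and 1 of 9 at 0.9. They were Des (0.901), the desmin gene that skeletal muscle expresses as well, and Acta2, the smooth muscle actin (0.659). Cnn1, a calponin of smooth muscle, had 0.366. Across groups the mean of that list was -1.04 to -0.39 on ko_OVA and 0.09 to 0.73 on ko_saline arrays, and -1.51 to 0.07 on wt_OVA and -0.37 to 0.09 on wt_saline arrays. The ranges of ko_OVA and ko_saline do not overlap for this list, nor for that of alveolar epithelium, with means of 1.58 to 1.72 on ko_OVA and 2.19 to 2.67 on ko_saline arrays, and 1.62 to 2.01 on wt_OVA and 1.91 to 2.10 on wt_saline arrays. Endothelium had -2.88 to -2.18 on ko_OVA and -2.41 to -1.56 on ko_saline arrays, which overlap, as do those of each other list. The part of these lists in the members' difference with OVA in ko was not tested. Thyroid genes had 1 of 8 at an r of at least 0.5 (Slc5a5, 0.721, at the floor on all arrays but ko_saline 2 and wt_OVA 1), although 6 of the 8 had their highest level on ko_saline 2 or wt_OVA 1. Thyroglobulin, Tg, had 7.30 on ko_saline 2 and 5.94 on wt_OVA 1, but also 7.18 on wt_saline 4 and 6.95 on wt_OVA 4, where the members were low (r = 0.266). Of 18 airway epithelium genes 0 had an r of at least 0.5, and all lay between -0.562 and -0.105. The lists of cartilage (10 genes), adipocytes (13), squamous and oesophageal epithelium (11), nerve and Schwann cells (7), red blood cells (4), salivary and submucosal gland (8) and alveolar epithelium (10) had none at 0.5 either. Fibroblasts and tendon had 1 of 13 and endothelium 2 of 10, up to 0.510 and 0.614. The 2 genes with the widest range of a list with no call had r of -0.397 and -0.370 (Krt13 and Krt16, squamous keratins), 0.131 and 0.143 (Col1a1 and Col1a2, collagens), 0.467 and 0.339 (Prph, at the floor on 15 arrays, and Prx, of nerve), -0.0703 and -0.0200 (Alas2 and, over 14 arrays, Hba-a1, of red blood cells), and 0.426 and 0.399 (Dcpp1 and Dcpp2, of glands). Called genes of the other lists had r of -0.562 to 0.391 with the members. With OVA in wt they were Cidea, a lipid droplet protein, higher by 1.69 ± 0.18 (SE, limma adjusted p = 0.000312), Col9a3, a cartilage collagen, higher by 0.86 ± 0.21 (0.0467), and Sftpb, a surfactant protein, at -2.88 ± 0.30 (0.000232). With OVA in ko they were Cidea at 0.90 ± 0.18 (limma adjusted p = 0.0380), Sftpb at -2.56 ± 0.30 (0.000932), Bpifb1, a secreted airway protein, at 1.24 ± 0.22 (0.0162), and Kdr, a receptor of endothelial cells, at -2.25 ± 0.48 (0.0453). With 1 array left out at a time, Sftpb was called in all 16 fits in both genotypes, Cidea in 16 in wt and 7 in ko, Bpifb1 in 12, Col9a3 in 3 and Kdr in 1.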

How the data were processed

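RNA of 16 samples was labelled with Cy3 and hybridised to one-colour arrays, per the labels' protocols. The authors' scanner files give each spot's processed signal, an intensity with the background already subtracted. The file headers name Feature Extraction 10.5.1.1, and the submitters' processing notes name 10.1. The authors' deposited series table holds log2 values and served as an alternative; how they were normalized is not given in the sources used here.

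Control spots and spots marked as outliers were left out. Each array was scaled to its 75th percentile, floored at -3.32 and taken to log2. A probe was kept if at least 4 of the 16 arrays had it well above background, which held for 25622 of 41174. The brightest probe stood for each of 18570 genes and unnamed transcripts, 12853 with a symbol from RefSeq. The main test was limma 3.58.1 (R 4.3.3) on all 16 arrays, with a mean for each group and p-values adjusted by Benjamini-Hochberg over the 18570. On data simulated for OVA against saline in ko over 17949 genes, 75 of 100 changes of 1 log2 unit and 95 of 100 of 2 were recovered, with 13 false calls. The changed genes were drawn from all genes, whose median SD within groups was 0.24. These rates do not hold for the members, whose SD was 1.92 to 3.52.

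The members and lists were chosen with earlier results of these data known. Of 282 listed genes 206 were measured. Named were the members, the called genes of a list or its 2 with the widest range, Itgb6, and the 12 genes most and 5 least like the members. Other genes of a list are named as exceptions, after their values were seen. The value of 1 gene that this rule names is not reported here. Alternatives were 15 settings and leaving out each array. Replicate numbers come from the titles and were not taken as pairs.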

Additional observations from a re-analysis of the deposited data

Results flagged for a closer look

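The levels of 2 genes on 2 arrays stood apart from the other 3 arrays of their group, by Dixon's criterion for groups of 4, among 39 combinations of member and group with 4 values; chance gives about 1 in 20. Ckm had 2.11 and Pvalb 1.74 on wt_OVA 1, where the other 3 wt_OVA arrays were between -3.32 and -3.15 for Ckm and between -3.32 and -3.29 for Pvalb. On that array all 10 members were at their second highest level. Ckm had -3.28 and Pvalb -2.16 on ko_OVA 3, where the other 3 ko_OVA arrays were at the floor of -3.32 for both genes, so that any value above the floor stands apart.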

How the results depend on the processing

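No member was called in any of the 5 comparisons under the 15 alternatives or without any 1 array (lowest adjusted p 0.229, for OVA in ko without wt_OVA 1), so the call counts were 0 throughout; the alternative of the groups compared alone gives no interaction, and the filter on all arrays kept 3 members. The median with OVA in ko ran from -4.99 with array position as a block to -2.89 with normexp and quantile, and from -4.92 to -2.13 over arrays left out. In wt it ran from -0.81 to 0.07, and from -1.73 to 0.70 over arrays left out. Directions of members near 0 turned, all but 1 with OVA in wt: with position as a block Acta1 -0.54, Tnnt3 -0.53, Ckm -0.53 and Pvalb -0.66; with the lower floor Tnnt3 -0.63, Ckm -0.19, Pvalb -0.42 and, for ko against wt after saline, Myh2 -0.33; with median scaling Acta1 -0.18, Tnnt3 -0.37 and Pvalb -0.09; with slide as a fixed block Acta1 -0.23 and Tnnt3 -0.14; with normexp and quantile Myh4 0.21 and Mylpf 0.12; with quantile normalization Mylpf 0.06; with the series table Myh4 0.09, Mylpf 0.07 and Tnnt3 -0.06; and with the mean of the probes Myh4 0.04. The cause was not tested.

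Over arrays left out, changes with OVA in wt ran from -1.89 to 1.16 for Myh4, -2.14 to 0.46 for Myh1, -2.33 to 0.48 for Myh2, -1.41 to 0.87 for Acta1, -1.58 to 0.87 for Tnnt3, -2.69 to 0.62 for Tnnc2, -1.34 to 0.60 for Mylpf, -0.96 to 0.91 for Ckm, -1.94 to 0.32 for Mb and -0.99 to 0.92 for Pvalb. For ko against wt after saline Myh2 ran from -1.09 to 1.66. After OVA the ranges that crossed 0 were -1.80 to 1.25 for Myh4, -2.51 to 0.09 for Myh1, -2.26 to 0.11 for Tnnt3, -2.58 to 0.73 for Tnnc2, -1.73 to 0.21 for Mylpf and -1.41 to 0.28 for Pvalb. The mean of the members on ko_OVA 2, relative to the mean of all arrays, moved to -4.22 with the lower floor, which by construction sets floored levels lower; the other 111 such values moved by less than the SD of their group.

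Calls over all genes, 485 for OVA in wt, 139 for OVA in ko, 30 for ko against wt after saline and 27 after OVA, fell most with median scaling (100 and 35 with OVA in wt and ko), with position as a block (94 in wt, 15 after saline), with the groups compared alone (235 in wt, 7 in ko, 7 after OVA) and with the filter on all arrays (19 after saline, 11 after OVA). They were 46 after saline with normexp and quantile and with the lower floor, and 55 with the series table. With OVA in wt 289 were higher and 196 lower, against 39 and 61 with median scaling. Without 1 array the counts ran from 235 to 543, 69 to 168, 25 to 47 and 25 to 31, and the interaction had 0 to 3. The replicate numbers were not taken as pairs: deviations of same-numbered arrays correlated between -0.221 and 0.402 over 16 pairs of arrays. Arrays of different numbers were not compared, so these values do not settle whether the numbers pair the samples. With the replicate block 0 members were called, 2 passed unadjusted for OVA in ko, where the median was -3.25, and 370 and 103 genes were called with OVA in wt and ko. Ckm and Pvalb were at the floor on 8 arrays each, and on 2 of the 8 their signal was well above background. Myh2, Acta1, Tnnc2 and Mb each had 1 such array, so a level at the floor is not always an absent signal.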
